A study of Mus musculus with 18 samples.

Results

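The Hox genes encode homeodomain transcription factors that mark position along the body axis, and the mouse carries 39 of them in 4 clusters. All 39 were found among the 55469 genes of the deposited tables of prostate RNA, as the rows whose symbol is Hoxa, Hoxb, Hoxc or Hoxd followed by a number alone, so that antisense and other noncoding transcripts of the clusters were left out. The rule used names and no measured value. The genes of a cluster lie in order on one chromosome, and genes at the same place in different clusters form a paralog group. Low-numbered groups are known for expression towards the head and high-numbered groups for expression towards the tail, with group 13 at the hind end, including the urogenital sinus from which the prostate buds. Hoxb13, of the last group, is known as a marker of prostate epithelium and is needed for the secretory cells of the ventral lobe, while Hoxa13 and Hoxd13 are known for the growth and branching of the gland. Adult cells are known to keep the Hox pattern of the place they came from.

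Total RNA was measured by RNA sequencing in the ventral and lateral prostate lobes of male mice on a background labelled C56NL/6N, matched for age and litter. WT mice were compared with KO mice, which lack exon 8 of both copies of Elac2 in cells that express a Cre recombinase from the probasin promoter (Pb-Cre), and with A537T mice, in which genome editing with CRISPR-Cas9 put a threonine in place of an alanine in both copies of Elac2 in the whole body. Elac2 encodes the RNase Z that cuts the 3′ trailers from tRNA precursors. Each genotype was sampled at 10 and at 30 weeks with 3 libraries, giving 18 libraries in 6 groups, and the crosses of these mice to TRAMP were not analysed here. The tissue is a whole lobe, so that cells without Cre also contribute RNA to KO, and per the labels the seminal vesicles, bladder, urethra and surrounding fat were dissected away.

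Libraries held 6569642 to 11225281 recovered reads. Levels are given in CPM, the reads of a gene per 1000000 reads of its library, and the comparisons use normalised read counts, which were divided by a size factor within a table. At 10 weeks the WT libraries are named 10AF, 11AF and 12AF, those of KO 13AF, 14AF and 15AF, and those of A537T 16AF, 17AF and 18AF. At 30 weeks the names are 1AF, 2AF and 3AF for WT, 4AF, 5AF and 6AF for KO, and 7AF, 8AF and 9AF for A537T. Values of 3 libraries are given in this order. The normalised read count of Elac2 was 124 to 166 in WT and 111 to 119 in KO at 10 weeks, and 149.6 to 194 in WT and 98.4 to 151 in KO at 30 weeks, where the groups overlapped. Genes of the seminal vesicle, an accessory gland that develops from another duct than the prostate, set libraries apart. A list of 11 of them took 0.000408 to 0.000798% of the reads in WT at 30 weeks, while KO of that age spanned 0.000134 to 8.53% and A537T 0.00016 to 9.18%. At 10 weeks WT spanned 0.000827 to 4.64%, KO 6.56 to 10.3% and A537T 0.0377 to 0.192%. The 4 libraries with the largest share were 13AF, 14AF, 15AF and 10AF at 10 weeks, and 4AF, 6AF, 7AF and 9AF at 30 weeks. Of the defining genes, Pax2 was at 0 reads in 1AF, 2AF, 3AF, 5AF and 8AF and Pate4 was at 0 reads in 3AF, 5AF and 8AF. A list of 20 skeletal muscle genes took 3.98 to 12.7% of the reads in WT of 10 weeks, while KO of that age spanned 0.12 to 2.1%, A537T 1.62 to 4.39% and the 9 libraries of 30 weeks 0.0273 to 0.0947%. In bulk tissue, fewer cells of a type and less RNA per cell cannot be told apart.

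The clusters lie on 4 chromosomes of GRCm38. Hoxa has 11 genes on chromosome 6, the last of which ends at 52260880, on the minus strand, Hoxb 10 genes on chromosome 11 between 96194316 and 96368256, Hoxc 9 genes on chromosome 15 between 102921103 and 103036852, and Hoxd 9 genes on chromosome 2 between 74668310 and 74765142, the last 3 on the plus strand. Hoxb13 stands apart from its cluster, 74 kb from Hoxb9, its nearest Hox gene. More than 3 reads were found in every library for 19 members, among them 7 of the 11 Hoxa genes, 7 of the 10 Hoxb genes, 5 of the 9 Hoxd genes and 0 of the 9 Hoxc genes. Hoxb1, Hoxc12, Hoxc13 and Hoxd1 had no more than 3 reads in any library. Hoxb1 and Hoxc13 had 0 reads in all 18 libraries, which allows up to 0.267 to 0.457 CPM per library for counting error.

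Hoxb13 was the most abundant Hox mRNA in every library, also per length of transcript. Its level was 105, 249 and 171 CPM in WT libraries 10AF, 11AF and 12AF, then 90.2, 113 and 67.7 in KO, then 229.7, 183 and 172 in A537T at 10 weeks. At 30 weeks it was 381, 263 and 324 CPM in WT, against 99.7, 387 and 155 in KO, and against 189, 343 and 124 in A537T. One library of each mutant group of 30 weeks, 5AF and 8AF, thus lay within or above the WT range, and the other 2 of each lay below it. Group means ran from 323 ± 59.1 CPM (SD, n = 3) in WT at 30 weeks through 219 ± 112 (A537T, 30 weeks), 214 ± 152 (KO, 30 weeks), 195 ± 30.7 (A537T, 10 weeks) and 175 ± 71.8 (WT, 10 weeks) to 90.5 ± 22.8 (KO, 10 weeks). Neighbours in this order overlapped in every case.

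Hoxb13 supplied between 20.8% (95% Wilson interval 19.1 to 22.6%) of all Hox reads in KO library 15AF and 86.5% (85.5 to 87.4%) in WT library 1AF, with the intervals covering counting error only. The sum over all 39 members moved less, from 271 to 447 CPM over the 18 libraries. On a scale per length, which allows genes to be compared, Hoxb13 ranked first in every group, with a median of 147 CPM per kilobase of exon (RPKM) in WT at 30 weeks and 40.9 RPKM in KO at 10 weeks. The second place changed between groups. It was held by Hoxd8 in WT of 10 weeks (5.64 RPKM), by Hoxa13 in A537T of 10 weeks (5.93), by Hoxa10 in WT of 30 weeks (3.71), and by Hoxb6 in KO of both ages (10.6 and 8.51) and A537T of 30 weeks (9.45).

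**Figure D1:**
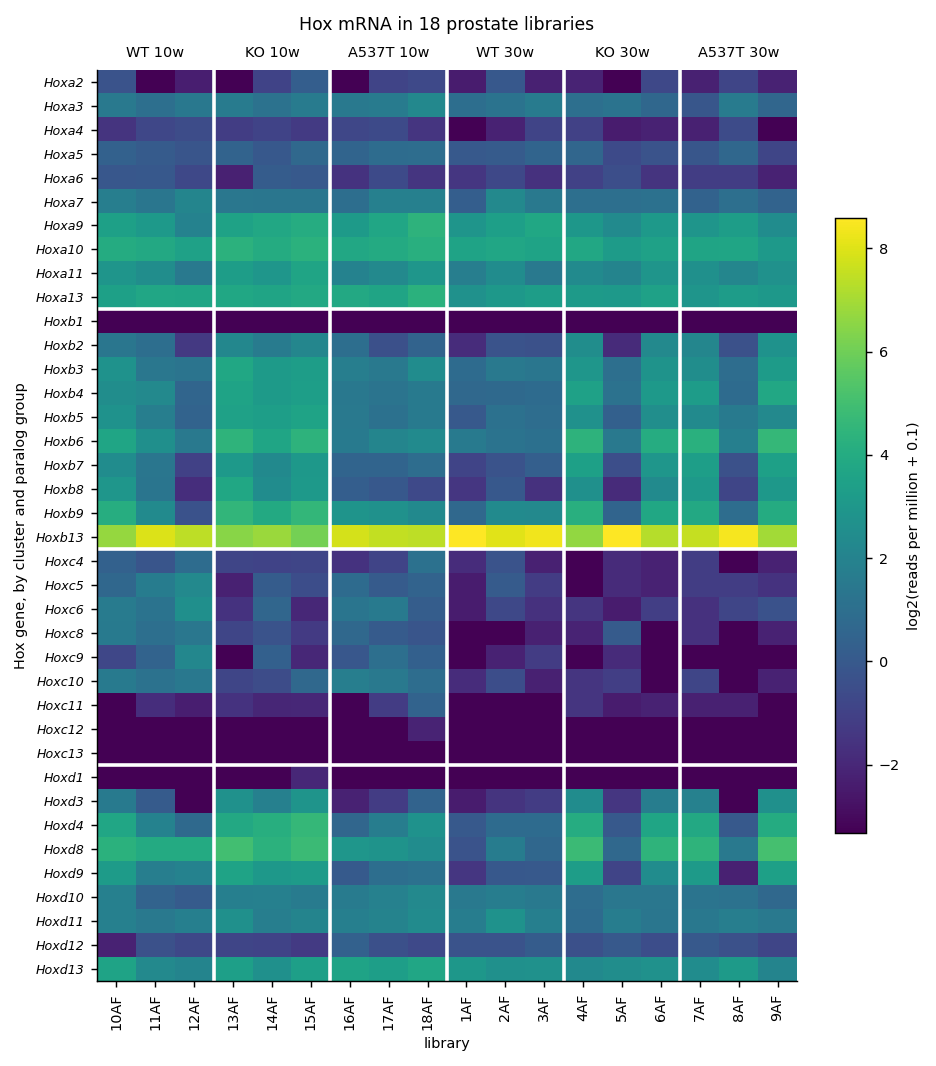
Level of Hox genes (rows, by cluster and paralog group) in the 18 libraries (columns, by group) as log2(CPM + 0.1), with white lines between clusters and groups. Hoxb13 is the brightest row throughout, and Hoxb2 to Hoxb9 and Hoxd3 to Hoxd9 are bright in 10AF, 13AF to 15AF, 4AF, 6AF, 7AF and 9AF.

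The other genes of group 13 were steadier. Hoxa13 measured 10.7, 13.3 and 12.7 CPM in WT, 13.7, 12.2 and 14.3 in KO and 14.6, 12.5 and 19.5 in A537T at 10 weeks. At 30 weeks Hoxa13 measured 6.34, 8.13 and 9.89 in WT, 8.92, 8.73 and 11.2 in KO and 7.33, 9.47 and 7.98 in A537T, so that genotypes overlapped at both ages. Hoxd13 measured 11.8, 4.79 and 4.04 CPM in WT, 10.6, 6.32 and 10.7 in KO and 12.1, 10.2 and 13.2 in A537T at 10 weeks. In that gene WT library 10AF stood with the mutants and the other 2 WT libraries below them. At 30 weeks Hoxd13 measured 7.79, 6.16 and 6.41 in WT, 4.91, 5.61 and 6.39 in KO and 5.5, 9.02 and 3.99 in A537T. Hoxc13, the fourth gene of the group, was at 0 in every library.

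On the length scale the clusters ranked differently along the paralog groups. In WT at 30 weeks the Hoxa medians were higher towards the tail end, from 0.369 RPKM for Hoxa3 to 1.85 for Hoxa9, 3.71 for Hoxa10, 1.47 for Hoxa11 and 3.29 for Hoxa13. The Hoxb genes between groups 2 and 8 were at 0.103 to 1.13 RPKM in these libraries, and Hoxb9 was at 1.83. In Hoxd the highest medians of WT at 30 weeks were at the tail end, with Hoxd13 at 2.58 and Hoxd10 at 1.5 RPKM, while Hoxd8 stood at 0.532. In KO at 10 weeks the middle of both clusters was higher than in WT at 30 weeks, with Hoxb6 at 10.6, Hoxd8 at 10.2, Hoxb9 at 8.84 and Hoxd4 at 5.9 RPKM. The Hoxc medians lay at or below 0.109 RPKM in WT at 30 weeks and at or below 0.301 RPKM in KO at 10 weeks. These 2 groups stand in tables that were normalised separately, so the levels are set side by side and were not tested. Hoxd3 and Hoxd4 share 62.3% and 52.3% of their exon bases with each other or with a read-through transcript on the same strand, so the split of reads between them is uncertain, and Hoxa2 shares 15% and Hoxd11 10.8% of theirs with such transcripts.

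**Figure D2:**
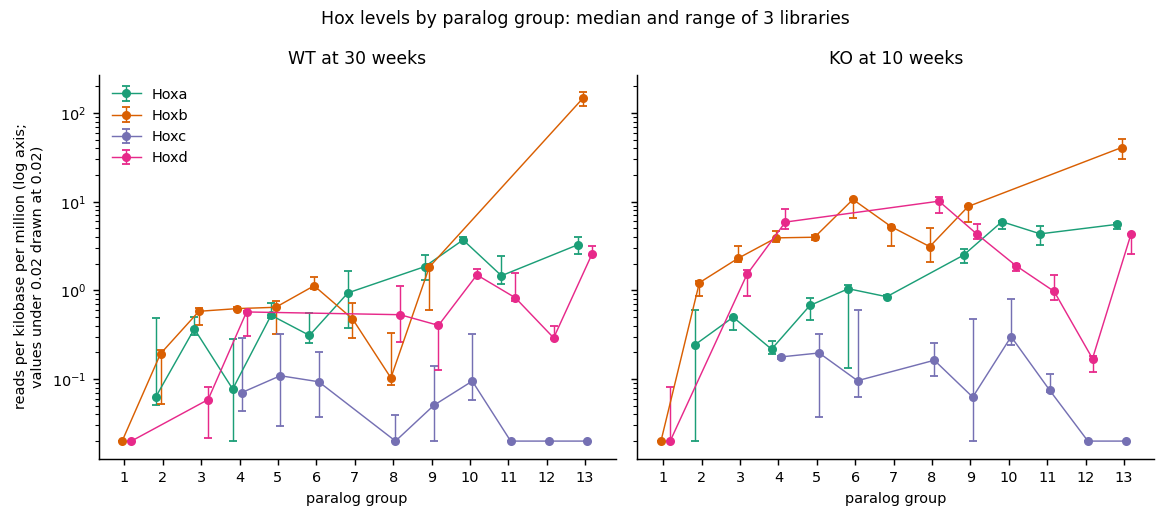
Median level and range of 3 libraries in RPKM (log axis) against paralog group for the 4 clusters, in WT at 30 weeks (left) and KO at 10 weeks (right). Hoxb13 is the top point in both, at 147 and 40.9 RPKM, and Hoxb2 to Hoxb9 and Hoxd3 to Hoxd9 are higher on the right.

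Across libraries the Hoxb and Hoxd members fell into sets that followed position in the cluster. For 12 members, Hoxb2 to Hoxb9 and Hoxd3, Hoxd4, Hoxd8 and Hoxd9, the 4 libraries with the largest seminal vesicle share were the 4 highest at 10 weeks and also at 30 weeks. For 1 member, Hoxb13, they were the 4 lowest at both ages. Among the 15497 genes with a mean of at least 1 CPM, of which 25 were Hox genes, 3.85% had the first pattern and 1.88% the second. The 8 genes from Hoxb2 to Hoxb9 summed to 64.2 CPM in 10AF, 28.5 in 11AF and 9.26 in 12AF, all 3 WT at 10 weeks. They summed to 69.4 to 107 in KO and to 20.53 to 24.9 in A537T of the same age. At 30 weeks the sum was 9.42 to 16.1 in WT, 86.8, 10.3 and 68.8 in KO, and 76.4, 13.5 and 93.6 in A537T. The ratio of Hoxb13 to this sum ran from 0.703 in KO library 15AF to 40.5 in WT library 1AF. Library 10AF thus stood apart from the other WT libraries of its age, and 5AF and 8AF from the other libraries of their groups.

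The same split held for the front of the Hoxd cluster and ended inside it. Hoxd3, Hoxd4, Hoxd8 and Hoxd9 summed to 58.96, 3.12 and 42.9 CPM in KO libraries 4AF, 5AF and 6AF, and to 48.7, 3.77 and 67.3 in A537T libraries 7AF, 8AF and 9AF, against 1.99 to 5.91 in WT of 30 weeks. Hoxd10 to Hoxd13, the next genes on the same chromosome, summed to 9.05, 12.3 and 12 in KO and to 11.3, 15.2 and 8.69 in A537T, against 13.6 to 16.7 in WT. Over all 18 libraries the highest sum of Hoxd3 to Hoxd9 was 34.3 times the lowest, and that of Hoxd10 to Hoxd13 was 2.74 times the lowest. The sum of the 9 genes from Hoxa3 to Hoxa13 also varied little, by 2.42 times, from 31.8 to 77 CPM. Single genes of this set varied more, Hoxa11 by 4.51, Hoxa9 by 5.42 and Hoxa3 by 5.77 times. At each age 3 of the 4 highest libraries of Hoxa11 were among the 4 with the largest seminal vesicle share. Hoxa10 had the smallest range of the members with more than 3 reads in every library, 2.3 times, and Hoxd8 the largest, 47.3 times. In 12AF, the library of 10 weeks with the smallest seminal vesicle share, Hoxd8 was at 15.5 CPM, against 19.3 in 10AF and 15.3 in 11AF, so the 3 WT libraries of that age were close in Hoxd8 while Hoxb9 ran from 0.69 in 12AF to 17 in 10AF.

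The Hoxc genes formed a set of their own. Hoxc4 to Hoxc10, 6 genes, summed to 12.1, 11.5 and 22.2 CPM in WT, 1.73, 5.32 and 3.2 in KO and 10.0, 9.99 and 8.1 in A537T at 10 weeks, and to 0.544 to 2.96 in the 9 libraries of 30 weeks. The highest value was in 12AF, which also had the largest skeletal muscle share, 12.7%, and within KO the highest was in 14AF, which had 2.1% against 0.12 and 0.124% in 15AF and 13AF. The part of muscle and of seminal vesicle tissue in the Hox levels was not tested.

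**Figure D3:**
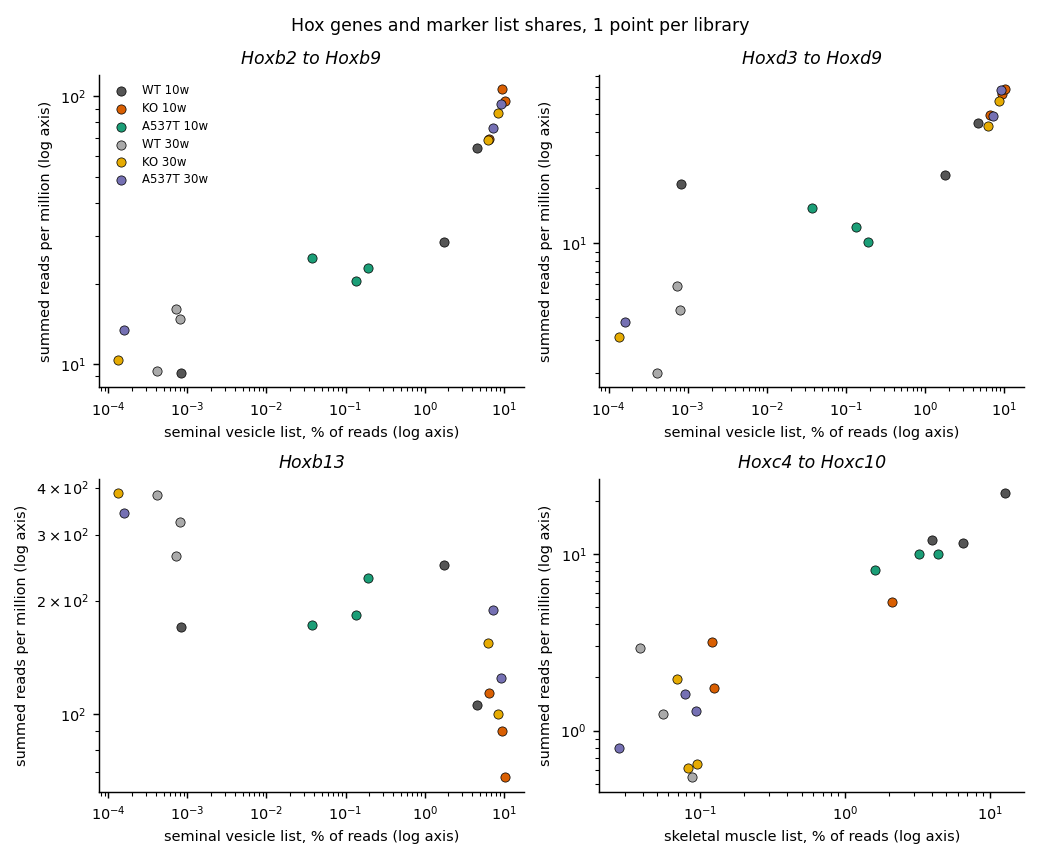
Summed CPM of Hoxb2 to Hoxb9, Hoxd3 to Hoxd9 and Hoxb13 against the share of reads on 11 seminal vesicle genes, and of Hoxc4 to Hoxc10 against the share on 20 skeletal muscle genes, 1 point per library, all axes logarithmic. The 8 libraries with more than 4% on the seminal vesicle list hold the 8 highest sums of Hoxb2 to Hoxb9, from 64.2 to 107 CPM.

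The starts of 6 of these genes are shown, taken from the set that was split between libraries and from group 13. Hoxb4, Hoxb8, Hoxd4 and Hoxd8 come from the 12 members that were highest in the libraries with seminal vesicle genes, and Hoxa13 and Hoxd13 from group 13. A window of 300 bases, from 250 before to 50 after the annotated start, was found for 22 of the 39 members in the RefSeq promoter table of GRCm38.p6. These starts can differ from the gene starts used for the cluster positions. The Hoxd13 window ends before that gene start, 74668310, and the Hoxd4 window lies inside the gene, which starts there at 74711929. Capitals mark TTTAT, the core of sites known for tail-group Hox proteins such as HOXB13, or ATAAA, the same 5 bases read on the other strand, and matches that overlap were counted each. At least 1 match was present in 40% of all 32851 windows and in 9 of the 24 windows of Hox genes, and 3 or more in 6.89% of all windows. Hoxb8 (chr11:96281655-96281954, plus strand) and Hoxd4 (chr2:74721728-74722027, plus strand) held 6 matches each, and Hoxd13 (chr2:74667975-74668274, plus strand) held 2 that overlap. Hoxb4 (chr11:96318017-96318316, plus strand), Hoxd8 (chr2:74704365-74704664, plus strand) and Hoxa13 (chr6:52260831-52261130, minus strand) held 0. Members of one set thus differed in these letters, which describe the sequence and do not measure binding. Among the 6 windows shown, the share of G and C was 81% in Hoxa13 and 74.3% in Hoxd13. It was 58% in Hoxb4, 46.7% in Hoxd8, 42.3% in Hoxb8 and 39.7% in Hoxd4. That share was not taken for other windows, so these values do not describe group 13 as a whole.
Hoxb4: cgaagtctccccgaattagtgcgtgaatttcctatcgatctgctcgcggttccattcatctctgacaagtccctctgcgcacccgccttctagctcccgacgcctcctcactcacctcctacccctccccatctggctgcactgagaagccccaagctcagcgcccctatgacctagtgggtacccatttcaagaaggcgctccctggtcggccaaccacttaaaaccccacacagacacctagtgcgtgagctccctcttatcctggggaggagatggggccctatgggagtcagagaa
Hoxb8: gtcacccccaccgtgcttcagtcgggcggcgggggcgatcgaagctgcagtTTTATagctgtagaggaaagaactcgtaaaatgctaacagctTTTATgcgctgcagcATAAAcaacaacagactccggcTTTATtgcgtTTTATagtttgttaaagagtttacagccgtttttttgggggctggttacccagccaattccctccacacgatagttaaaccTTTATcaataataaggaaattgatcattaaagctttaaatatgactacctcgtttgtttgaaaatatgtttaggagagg
Hoxd4: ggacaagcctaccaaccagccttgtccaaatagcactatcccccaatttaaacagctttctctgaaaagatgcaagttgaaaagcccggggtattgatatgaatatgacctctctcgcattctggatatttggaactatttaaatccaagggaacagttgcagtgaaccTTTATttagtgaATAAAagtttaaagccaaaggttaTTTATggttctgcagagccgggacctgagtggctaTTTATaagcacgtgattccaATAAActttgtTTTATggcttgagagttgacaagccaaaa
Hoxd8: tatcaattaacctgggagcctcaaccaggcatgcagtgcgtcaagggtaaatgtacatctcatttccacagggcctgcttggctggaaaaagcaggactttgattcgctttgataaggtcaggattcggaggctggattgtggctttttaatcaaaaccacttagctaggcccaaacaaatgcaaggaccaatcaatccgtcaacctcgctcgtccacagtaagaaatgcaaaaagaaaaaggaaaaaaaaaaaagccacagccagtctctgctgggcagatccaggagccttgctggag
Hoxa13: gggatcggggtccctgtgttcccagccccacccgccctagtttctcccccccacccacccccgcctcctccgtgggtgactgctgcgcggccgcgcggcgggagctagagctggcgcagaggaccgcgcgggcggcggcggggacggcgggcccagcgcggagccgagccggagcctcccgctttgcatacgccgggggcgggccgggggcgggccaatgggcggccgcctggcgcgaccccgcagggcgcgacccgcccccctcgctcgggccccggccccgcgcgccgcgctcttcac
Hoxd13: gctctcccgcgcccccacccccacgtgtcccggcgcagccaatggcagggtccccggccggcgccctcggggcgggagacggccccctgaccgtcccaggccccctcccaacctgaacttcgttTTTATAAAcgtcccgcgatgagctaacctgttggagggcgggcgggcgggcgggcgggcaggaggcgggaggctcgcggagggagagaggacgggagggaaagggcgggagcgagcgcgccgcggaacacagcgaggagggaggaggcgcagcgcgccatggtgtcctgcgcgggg

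The first comparison asked how KO differed from WT at 10 weeks. No Hox gene passed an adjusted p of 0.05 in limma on log2(normalised count + 1), with 27 of 39 members tested, and neither did any of the 15089 genes tested (background 0%). The 8 genes from Hoxb2 to Hoxb9 had log2 fold changes of 1.34 to 2.07, the 5 tested Hoxc genes of -2.93 to -1.81, and Hoxb13 of -1.11. All 7 tested Hoxd genes were positive, at 0.23 to 2.82. The highest was Hoxd3, with 24, 10 and 0 recovered reads in WT. The 6 tested Hoxa genes ran from -0.58 to 0.77, with 3 positive and 3 negative. At an unadjusted p under 0.05 there were 8 members higher, against a background of 7.97% of genes, and 5 lower, against 11.5%. All 3 KO libraries lay above all 3 WT libraries for 10 members, background 11.7%, and below them for 5, background 14.3%. The median log2 fold change of the tested members was 0.75, and that of all genes -0.0061. With each library scaled to the same total, the median of all genes moved to 0.20. The values of Hoxb2 to Hoxb9 lay above that shift, and those of Hoxb13 and the Hoxc genes below it, under that scaling too.

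Hoxb13 had normalised read counts of 845, 2120.5 and 1767 in WT libraries 10AF, 11AF and 12AF and of 671, 924 and 509 in KO. The KO library 14AF lay above the WT library 10AF, and the other KO libraries below every WT library. Its log2 fold change was -1.11 ± 0.38 (SE), with an adjusted p of 0.201 from limma. Hoxb3 was at 53.8, 21.7 and 23.5 in WT and 101, 72.6 and 73.2 in KO, a log2 fold change of 1.40 ± 0.38 with an adjusted p of 0.183 from limma. Hoxb5 was at 52.8, 28.3 and 13.3 in WT and 82.5, 83.1 and 89.2 in KO (1.60 ± 0.46, adjusted p = 0.183, limma). In both genes all KO libraries were above all WT libraries, with 10AF the highest WT library. Hoxb4 was at 45, 40.8 and 14.3 in WT and 89.4, 72.6 and 75.4 in KO (1.37 ± 0.44, adjusted p = 0.19, limma). Hoxb6 was at 103, 51.6 and 28.6 in WT and 157, 104 and 157 in KO (1.34 ± 0.45, adjusted p = 0.2, limma). The lowest KO library of Hoxb6, 14AF, was within 2 counts of the highest WT library.

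The Hoxc genes ran the other way. Hoxc8 was at 23.5, 16.7 and 26.5 in WT and 3.44, 5.85 and 2.29 in KO, a log2 fold change of -2.30 ± 0.46 with an adjusted p of 0.183 from limma. Hoxc10 was at 23.5, 18.3 and 27.5 in WT and 3.44, 4.68 and 11.4 in KO (-1.81 ± 0.49, adjusted p = 0.183, limma). For both of them every KO library was below every WT library. Hoxc6 was at 24.5, 19.2 and 62.2 in WT and 1.72, 11.7 and 1.143 in KO (-2.93 ± 0.80, adjusted p = 0.183, limma). Hoxc5 was at 11.7, 26.6 and 49 in WT and 0.859, 8.2 and 4.57 in KO (-2.51 ± 0.77, adjusted p = 0.188, limma). In these 2 genes and in Hoxc8, WT library 12AF was the highest and KO library 14AF the highest of KO, as in the skeletal muscle list. In that list 20 of 20 tested genes were lower at an unadjusted p under 0.05 (background 11.5%). Hoxc10 differed, with its highest KO value in 15AF, the KO library with the smallest muscle share (0.12%). WT library 10AF was above 11AF in Hoxc6, Hoxc8 and Hoxc10 and below it in Hoxc5, with muscle shares of 3.98 and 6.57%. All 5 tested Hoxc genes had a KO mean under 10 counts and passed the minimum through WT.

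The calls of this comparison depended on the test and on 1 library. DESeq2 on the recovered reads called 4 members, Hoxc8, Hoxc6, Hoxc5 and Hoxb13, all lower, against a background of 3.53% of genes. It called 0 higher, against 1.21%, and edgeR called 0. WT library 10AF had 4.64% of its reads on the seminal vesicle list. Without 10AF limma called 13 members, 10 higher (background 9.57%) and 3 lower (background 9.25%). The 3 lower were Hoxb13, Hoxc8 and Hoxc5. The Hoxc genes in both sets of calls passed the minimum mean through WT, so their calls are not separate support. With the skeletal muscle score as a covariate the log2 fold change of Hoxc6 was -0.53 and that of Hoxb13 -0.29. With the seminal vesicle score the log2 fold changes of Hoxb9 and Hoxb8 were 0.47 and 0.29. Over the alternative settings of this comparison, both scores included, the highest log2 fold change was -1.35 for Hoxc8 and -1.13 for Hoxc10. The lowest was 1.02 for Hoxb3 and 0.89 for Hoxb5.

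The second comparison set A537T against the same WT libraries at 10 weeks, so the values of the 2 comparisons are not independent. Here, too, 0 of 27 tested members and 0 of 15131 genes passed the adjusted threshold in limma (background 0%). At an unadjusted p under 0.05 there were 0 members higher (background 2.76%) and 3 lower (background 3.67%), which were Hoxd8, Hoxd9 and Hoxc8. Groups did not overlap for 1 member higher (background 5.58%) and 3 lower (background 6.34%). The member higher, Hoxa5, had a WT mean of 8.83 counts and passed the minimum mean of 10 through A537T. Hoxc8 and Hoxb8 had A537T means of 9.48 and 7.07 counts and passed it through WT. The median log2 fold change of the tested members was -0.10, and that of all genes 0.011, which moved to 0.15 with each library scaled to the same total.

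Hoxd8 was at 165, 136 and 168 normalised counts in WT and 68.1, 59.9 and 43.4 in A537T. Every A537T library was at less than the lowest WT value, and the log2 fold change was -1.45 ± 0.22 with an adjusted p of 0.746 from limma. DESeq2 called this 1 member lower, with an adjusted p of 0.000441, against a background of 0.41% of genes, 0 members higher (background 0.185%), and edgeR called 0. Without WT libraries 10AF and 11AF the value was -1.57, with the skeletal muscle score as a covariate -1.19, and with the seminal vesicle score -1.46. Hoxd9, next to it on the chromosome, was at 73.5, 27.7 and 38.3 in WT and 8.51, 16.2 and 16.1 in A537T (-1.64 ± 0.45, adjusted p = 0.746, limma). Hoxc8 was at 22.8, 16.4 and 25.6 in WT and 13.8, 8.56 and 6.05 in A537T (-1.15 ± 0.43, adjusted p = 0.746, limma). The groups were apart in these 2 genes as well.

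The tail end of the Hoxd cluster had log2 fold changes of the other sign in A537T of 10 weeks. Hoxd13 was at 99.4, 41.5 and 43.7 in WT and 109, 88.5 and 104 in A537T (0.81 ± 0.35, adjusted p = 0.746, limma). Hoxd10 was at 29, 11.2 and 10.7 in WT and 26.6, 32.3 and 37.3 in A537T (1.01 ± 0.44, adjusted p = 0.746, limma). In both, WT library 10AF lay inside the A537T range and the other WT libraries below it. Hoxa9 was at 91.1, 73.5 and 41.5 in WT and 79.8, 115 and 163 in A537T (0.80 ± 0.37, adjusted p = 0.746, limma). Its highest library, 18AF, was also the highest of the 18 in the smooth muscle list, with 1.04% of reads. Libraries 16AF and 17AF had 0.34 and 0.562% there. Library 18AF was the highest of the 18 in the fibroblast (0.315%), basal epithelium (0.0405%) and urothelium (0.0447%) lists as well. The part of these cell types was not tested. Without 18AF the log2 fold change of Hoxa9 was 0.55. Hoxc5 was at 11.4, 26.8 and 50.1 in WT and 14.9, 8.56 and 10.1 in A537T (-1.13 ± 0.56, adjusted p = 0.749, limma). Hoxa5 was at 9.32, 8.65 and 8.52 in WT and 11.7, 15.2 and 14.1 in A537T, the 1 member whose A537T libraries were all higher (0.57 ± 0.38, adjusted p = 0.767, limma). Hoxb13 differed by less than its spread, with 872, 2148 and 1797 in WT against 2052, 1584 and 1349.9 in A537T (0.13 ± 0.34, adjusted p = 0.949, limma). Its direction turned to -0.26 without WT library 10AF and to -0.13 without 10AF and 11AF. Without these 2 libraries, which had 4.64 and 1.77% of their reads on the seminal vesicle list, limma called 1 member, Hoxb9, higher in A537T (log2 fold change 2.62, adjusted p = 0.0414), against a background of 1.75% higher and 1.74% lower, with the single WT library 12AF taken to vary like the other group.

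**Figure D4:**
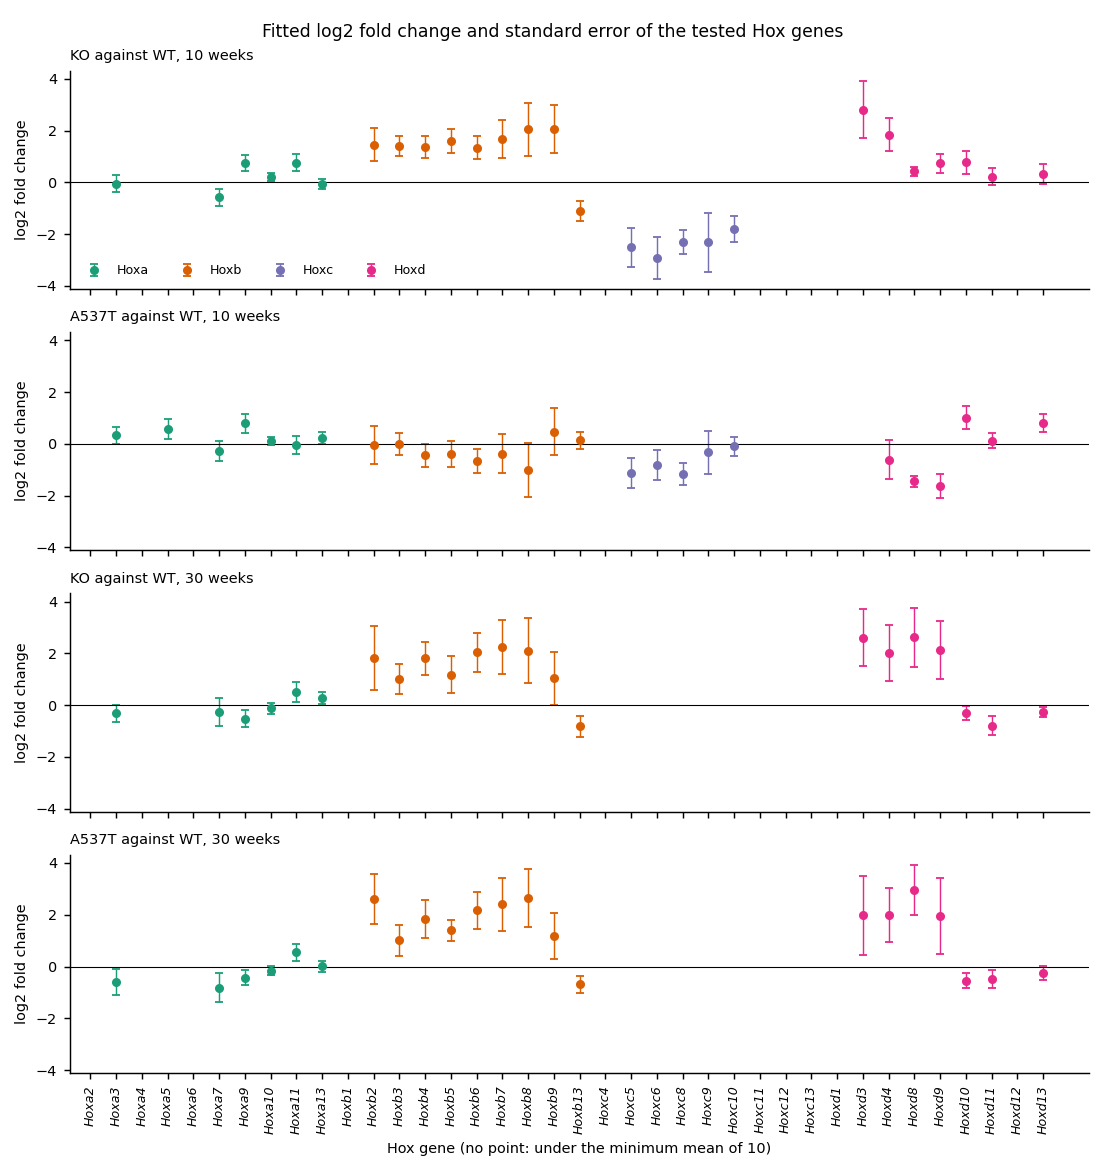
Fitted log2 fold change of mutant over WT with its standard error for the tested Hox genes, in cluster order, in the 4 comparisons, from limma on log2(normalised count + 1). Hoxb2 to Hoxb9 and Hoxd3 to Hoxd9 lie above 0 in 3 of the 4 panels, where Hoxb13 lies below 0 (-1.11, -0.81 and -0.69).

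At 30 weeks, KO was compared with WT of that age. No member of 22 tested and none of the 14729 genes passed the adjusted threshold in limma (background 0%), and 2 members, Hoxb4 and Hoxb6, were higher at an unadjusted p under 0.05 (background 5.56%) and 0 lower (background 5.41%). Groups did not overlap for 1 member higher (background 7.92%) and 1 lower (background 8.41%). The Hoxc genes were under the minimum mean of 10 and were left out, and with no minimum none of those fitted had an adjusted p below 0.482 (limma). Of the members tested, 5 (Hoxb2, Hoxb7, Hoxb8, Hoxd3 and Hoxd9) had a WT mean under 10 counts and passed the minimum through KO. The median log2 fold change of the tested members was 1.03 and that of all genes -0.0067. With no minimum the median of the members was 0.25, and with a minimum mean of 50 it was 0.26.

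The KO group was made of 2 libraries with high and 1 with low values of the front and middle Hoxb and Hoxd genes. Hoxb4 was at 13.7, 15 and 14.8 normalised counts in WT libraries 1AF, 2AF and 3AF and at 108, 17.6 and 79.1 in KO libraries 4AF, 5AF and 6AF. Its log2 fold change was 1.82 ± 0.64, with an adjusted p of 0.416 from limma. Hoxb6 was at 24.9, 20.7 and 17.8 in WT and 196, 22.8 and 158 in KO (2.04 ± 0.76, adjusted p = 0.429, limma). The library 5AF lay inside the WT range for Hoxb6 and just above it for Hoxb4. Hoxd8 was at 6.43, 28.8 and 12.9 in WT and 262, 12.5 and 201 in KO (2.62 ± 1.1, adjusted p = 0.458, limma). Hoxb7 was at 4.02, 6.91 and 9.9 in WT and 105, 5.14 and 70.9 in KO (2.25 ± 1.05, adjusted p = 0.479, limma). Hoxd9 was at 2.41, 8.06 and 7.92 in WT and 92.2, 3.67 and 52.3 in KO (2.13 ± 1.12, adjusted p = 0.52, limma). Hoxd3 had 1, 2 and 3 recovered reads in WT and 42, 3 and 26 in KO, and its fitted fold depends on the pseudocount.

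Of the 10 tested members of groups 9 to 13, 4 had a positive and 6 a negative log2 fold change in KO at 30 weeks. Hoxb13 was at 3386, 2463 and 2851 in WT and 948, 3188 and 1464 in KO, with 5AF inside the WT range and 4AF and 6AF below it (-0.81 ± 0.41, adjusted p = 0.509, limma). Its log2 fold change was -1.29 without 5AF and -0.41 without 4AF. Hoxd11 was at 28.1, 62.2 and 30.7 in WT and 16, 26.4 and 23.3 in KO, the 1 member whose KO libraries were all lower (-0.79 ± 0.38, adjusted p = 0.496, limma). Without library 5AF, limma called 12 members, 11 higher (background 4.03%) and 1 lower (background 2.33%). The 11 included Hoxb2, Hoxb7, Hoxb8, Hoxd3 and Hoxd9, which passed the minimum mean through KO, so their calls are not separate support. Without 4AF and 6AF, which had 8.53 and 6.33% of their reads on the seminal vesicle list, it called 0, the log2 fold change of Hoxb13 was 0.15, of Hoxb6 0.11 and of Hoxd8 -0.11, and 5AF was taken to vary like WT. DESeq2 on the recovered reads called 5 members higher, Hoxb6, Hoxb4, Hoxb7, Hoxd3 and Hoxd4 (background 1.32%), and 0 lower (background 0.611%), and edgeR called 0. Among these calls, too, Hoxb7 and Hoxd3 passed the minimum through KO.

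The comparison of A537T with the same 3 WT libraries at 30 weeks shares those controls with the one before. Of 22 members tested 0 passed the adjusted threshold in limma, as did 0 of 14789 genes (background 0%). At an unadjusted p under 0.05 there were 6 members higher (background 7.35%), namely Hoxb2, Hoxb4, Hoxb5, Hoxb6, Hoxb8 and Hoxd8, and 0 lower (background 6.28%). Groups did not overlap for 3 members higher, Hoxb2, Hoxb5 and Hoxb6 (background 9.18%), and 1 lower, Hoxd10 (background 9.4%). The same 5 members as in KO, among them Hoxb2 and Hoxb8, had a WT mean under 10 counts and passed the minimum through A537T. The median log2 fold change of the tested members was 1.10 and that of all genes -0.0052. The median of the members was 0.044 with no minimum and 0.016 with a minimum mean of 50.

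Hoxb5 was at 8.02, 18.4 and 15.8 in WT and 45.2, 24.1 and 44.9 in A537T libraries 7AF, 8AF and 9AF (1.39 ± 0.42, adjusted p = 0.291, limma). Hoxb6 was at 25.7, 21.8 and 18.8 in WT and 163, 28.9 and 225 in A537T (2.17 ± 0.71, adjusted p = 0.301, limma). In both genes 8AF lay just above the highest WT library and 7AF and 9AF further above it. Hoxd8 was at 6.42, 29.8 and 12.9 in WT and 189.8, 23.1 and 319.8 in A537T (2.96 ± 0.98, adjusted p = 0.305, limma). Hoxb2 was at 0.802, 5.73 and 4.95 in WT and 38.2, 5.78 and 61.3 in A537T (2.61 ± 0.96, adjusted p = 0.323, limma). Hoxb4 was at 13.6, 14.9 and 14.8 in WT and 83.4, 14.5 and 130.3 in A537T (1.85 ± 0.74, adjusted p = 0.349, limma). For Hoxb4 and Hoxd8 the library 8AF lay inside the WT range. Hoxb8 was at 3.21, 8.03 and 1.98 in WT and 72.3, 3.86 and 75.6 in A537T (2.64 ± 1.11, adjusted p = 0.365, limma). Hoxb7 was at 4.01, 6.88 and 9.9 in WT and 90.4, 5.78 and 101 in A537T (2.40 ± 1.03, adjusted p = 0.369, limma).

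Hoxb13 was at 3372, 2451 and 2846 in WT and 1660.4, 2897 and 1159 in A537T of 30 weeks, with 8AF inside and 7AF and 9AF below the WT range (-0.69 ± 0.31, adjusted p = 0.389, limma). Without 8AF the log2 fold change was -1.05 and without 9AF -0.39. Without 7AF and 9AF its log2 fold change was 0.016, that of Hoxb4 0.00074, of Hoxb6 0.38 and of Hoxd8 0.72, limma called 0 members, and 8AF was taken to vary like WT. Without 8AF limma called 11 members, 10 higher (background 4.94%) and 1 lower (background 3.23%). The 10 included Hoxb2, Hoxb7, Hoxb8, Hoxd3 and Hoxd9, which passed the minimum mean through A537T, so their calls are not separate support. DESeq2 on the recovered reads called 7 members higher, Hoxb2, Hoxb4, Hoxb6, Hoxb7, Hoxb8, Hoxd4 and Hoxd8 (background 2.18%). It called 0 lower (background 1.01%), and edgeR called 0. Among these calls, too, Hoxb2, Hoxb7 and Hoxb8 passed the minimum through A537T.

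**Figure D5:**
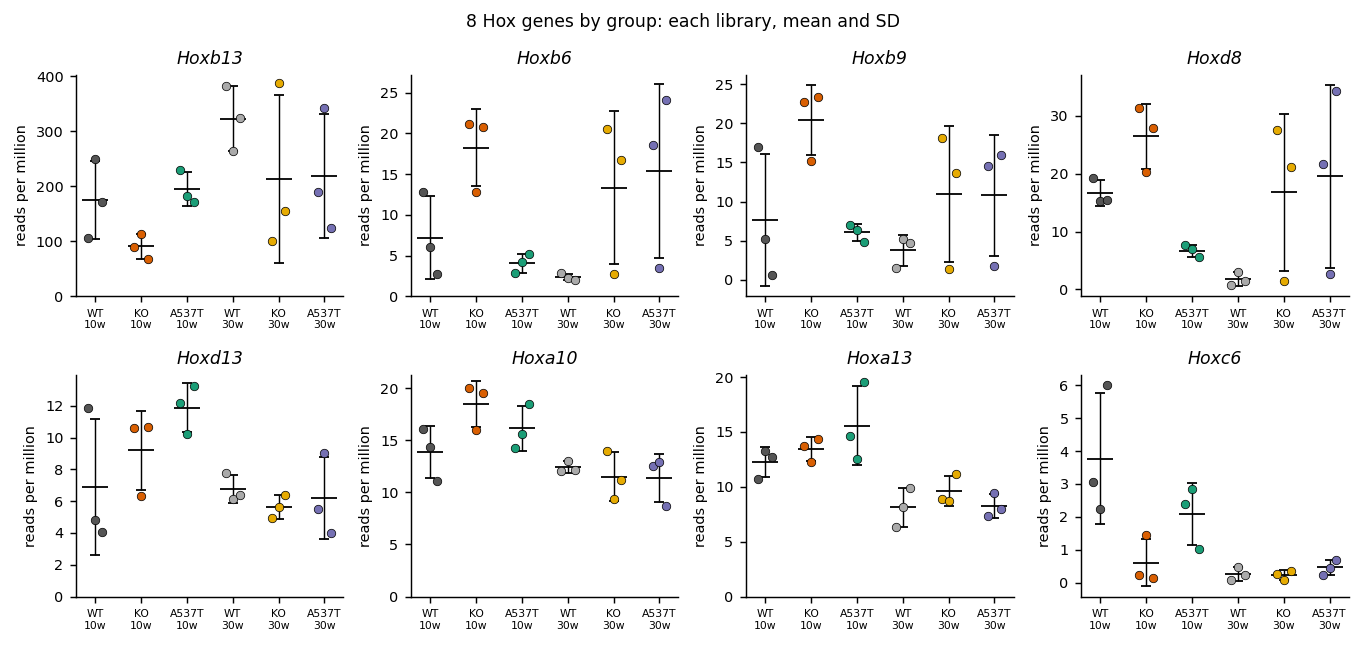
CPM of 8 Hox genes in each library (points) with the mean and SD of the 3 libraries of each group (bars), each panel on its own axis. In Hoxb6, Hoxb9 and Hoxd8 the KO and A537T groups of 30 weeks each split into 2 high libraries and 1 low library, and in Hoxb13 the 1 library is the high one (387 and 343).

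Genes that work with the Hox proteins or set their expression were followed on 4 lists. Pbx and Meis proteins bind DNA together with Hox proteins. Of 11 such cofactor genes 10 were tested in each comparison, 0 passed the adjusted threshold in limma, and at an unadjusted p under 0.05 there were 0 higher and 2 lower in KO at 10 weeks, 0 and 0 in A537T of 10 weeks, 1 and 1 in KO at 30 weeks, and 1 and 2 in A537T at 30 weeks. Of all genes tested, 7.97% were higher and 11.5% lower at that p in KO at 10 weeks, 2.76 and 3.67% in A537T of 10 weeks, 5.56 and 5.41% in KO of 30 weeks, and 7.35 and 6.28% in A537T of 30 weeks, and counts of 0 to 2 among 10 genes are too few to be read against these shares. Pbx3 was split between libraries like Hoxb6, with 4.82, 15 and 11.9 normalised counts in WT and 68.9, 16.2 and 50 in KO at 30 weeks (1.89 ± 0.63, adjusted p = 0.407, limma). In A537T of that age Pbx3 was at 52.2, 11.6 and 74.5 (1.71 ± 0.72, adjusted p = 0.366, limma). Meis1 was at 615, 510.3 and 605 in WT and 309, 552 and 376 in KO at 30 weeks (-0.52 ± 0.22, adjusted p = 0.448, limma), with the order of libraries within each group that Hoxb13 had. Meis1 had the same sign in KO of 10 weeks (-0.42 ± 0.14, adjusted p = 0.2, limma) and in A537T of 30 weeks (-0.57 ± 0.19, adjusted p = 0.305, limma). Pknox2, another gene of this family, was at -0.65 ± 0.30 on the log2 scale in KO and -0.65 ± 0.20 in A537T at 30 weeks (adjusted p = 0.477 and 0.293, limma). At 10 weeks Meis3 was at -0.66 ± 0.23 in KO and 0.47 ± 0.23 in A537T, Pbx3 at 1.08 ± 0.46 in KO, and Pknox1 and Tgif1 at 0.53 ± 0.30 and 0.26 ± 0.19 in A537T.

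Polycomb proteins keep Hox genes silent, and trithorax proteins and histone demethylases keep them active. All 28 genes of that list were tested in each comparison and 0 passed the adjusted threshold in limma, with 3 higher and 0 lower in KO at 10 weeks, 0 and 0 in A537T of 10 weeks, 1 and 2 in KO at 30 weeks, and 1 and 1 in A537T at 30 weeks at an unadjusted p under 0.05. The 3 of 28 genes higher in KO at 10 weeks stand beside 7.97% of all genes, and the counts of 1 or 2 of 28 at 30 weeks beside 5.41 to 7.35%. In KO at 10 weeks Kdm6b, a histone demethylase, had a log2 fold change of 0.61 ± 0.14, Men1, whose product menin serves the trithorax complex, 0.67 ± 0.19, and Cbx7, a Polycomb reader, 0.48 ± 0.16 (adjusted p = 0.183, 0.183 and 0.205, limma). Rbbp7, a histone chaperone found in the Polycomb methyltransferase, was below all WT libraries in every library of both mutants at 30 weeks, with log2 fold changes of -0.41 ± 0.11 in KO and -0.42 ± 0.10 in A537T (adjusted p = 0.386 and 0.25, limma). Its 3 WT libraries were at 1719, 1842 and 1745 and its KO libraries at 1207, 1484 and 1308.5. Cbx6, another Polycomb reader, was at 0.34 ± 0.11 in KO and 0.38 ± 0.14 in A537T, Suz12, a core subunit of the methyltransferase, at -0.30 ± 0.11 in KO, and Men1 at 0.33 ± 0.16 in A537T. In A537T at 10 weeks Phc1 was at 0.50 ± 0.27, Men1 at 0.29 ± 0.19 and Rbbp7 at 0.17 ± 0.11.

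Of 15 noncoding transcripts of the clusters, 6 were at 0 in every library and 1, Hoxa11os, which runs antisense to Hoxa11, could be tested. It was at 323, 356 and 329.7 in WT and 186, 206 and 250.1 in KO at 30 weeks, apart in all libraries (-0.66 ± 0.14, adjusted p = 0.331, limma). The value in A537T at 30 weeks was -0.46 ± 0.27, and at 10 weeks -0.16 ± 0.16 in KO and 0.03 ± 0.15 in A537T. Hoxa11 itself ran from 23.8 to 51.8 in WT and from 33 to 68.6 in KO at 30 weeks, and the counting was stranded per the study's methods.

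The last list held 19 regulators and neighbours of the clusters, of which 18 were in the tables and 11 were tested at 10 weeks and 10 at 30 weeks, and 0 passed the adjusted threshold in limma. At an unadjusted p under 0.05 there were 0 higher and 3 lower in KO at 10 weeks, 0 and 2 in A537T of 10 weeks, 1 and 0 in KO at 30 weeks and 2 and 0 in A537T at 30 weeks. Beside the 3 of 11 genes lower in KO and the 2 of 11 lower in A537T at 10 weeks, the shares of all genes were 11.5% and 3.67%. Beside the 1 of 10 genes higher in KO and the 2 of 10 higher in A537T at 30 weeks, they were 5.56% and 7.35%. Cyp26b1, whose enzyme degrades retinoic acid, a known inducer of front Hox genes, was at 80.2, 50 and 132 in WT and 27.5, 34 and 34.3 in KO at 10 weeks (-1.32 ± 0.36, adjusted p = 0.183, limma). In A537T it was at 19.2, 21.9 and 31.3, again below every WT library (-1.76 ± 0.39, adjusted p = 0.746, limma). Skap2, a neighbour of the Hoxa cluster, was at -0.55 ± 0.16 and Gdf11, a signal for tail Hox genes, at -1.05 ± 0.32 in KO at 10 weeks. Mtx2, a neighbour of the Hoxd cluster, was at -0.53 ± 0.17 in A537T at 10 weeks, 0.39 ± 0.16 in KO and 0.27 ± 0.17 in A537T at 30 weeks. The retinoic acid receptor genes Rarb and Rarg were at 1.13 ± 0.32 and 0.43 ± 0.14 in A537T at 30 weeks, with all A537T libraries above all WT libraries (adjusted p = 0.274 and 0.302, limma), at 0.63 ± 0.37 and 0.33 ± 0.16 in KO of that age, and Rarg was at 0.29 ± 0.25 in A537T at 10 weeks. In A537T at 30 weeks 7 of 7 tested leukocyte genes were higher at an unadjusted p under 0.05 (background 7.35%). The leukocyte list took 0.0298 to 0.106% of the reads in that group against 0.0141 to 0.0174% in WT. The part of leukocytes in the Rarb and Rarg values was not tested.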

How the data were processed

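Normalised values were analysed for 18 prostate libraries, 3 in each of 6 groups. Per the labels and the methods, the authors trimmed reads with Trim Galore 0.4.1 and cutadapt 1.18, aligned them with STAR 2.7.3a to GRCm38 and quantified stranded reads with Salmon. The authors divided gene counts by DESeq2 1.26 size factors, and these values (unit signal) were deposited in 4 tables of 6 libraries. A column was assigned to WT where it stood in both tables of an age, and otherwise to the mutant its table is named for, with no replicate. Tables of the authors' comparisons (base means, shrunken fold changes, s-values) were not used.

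At least 99.99% of positive values were whole multiples, within 0.05, of the value of 1 read, which gave recovered reads, CPM (WT from the KO table of its age) and RPKM over union exon lengths. For 4 columns the size factor lay so near 1 that the automatic check of these steps does not apply. Recovered reads of a WT library differed between its 2 tables for 53.6 to 64.1% of genes. Genes with a mean of at least 10 over 6 libraries were tested with limma 3.58.1 in R 4.3.3 (eBayes with a mean trend, two-sided) on log2(normalised count + 1), with Benjamini-Hochberg adjustment over all genes and a threshold of 0.05. A fold change on this scale understates that of low genes, and unadjusted p counts come from the same fit. Alternatives were edgeR 4.0.16 and DESeq2 1.42.0 on recovered reads, another pseudocount, other minimum means, equal totals, marker scores as covariates and libraries left out. The fit was tested on simulated data.

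Values are given for Hoxb13, group 13 and, per comparison, the 8 tested members with the smallest p, and up to 3 genes of each Hox pathway list. The members and lists were chosen with earlier results of these data known. The labels number the libraries as replicates, and the study's methods state biological replicates for all experiments. The p-values are therefore taken to measure the spread between mice. The values of 1 member are not reported here.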

Additional observations from a re-analysis of the deposited data

How the results depend on the processing

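No paired analysis was possible because the labels link no mouse of one genotype to a mouse of another. The columns also carry no replicate numbers. Calls and medians of the tested Hox genes moved as follows. DESeq2 on recovered reads called 4 members lower in KO at 10 weeks (background 3.53%) and 1 lower in A537T at 10 weeks (background 0.41%). At 30 weeks it called 5 members higher in KO (background 1.32%) and 7 higher in A537T (background 2.18%). In these comparisons limma called 0. With 1 library left out the calls ran from 0 to 13 in KO at 10 weeks (13 without 10AF), 0 to 12 in KO at 30 weeks (12 without 5AF), 0 to 11 in A537T at 30 weeks (11 without 8AF) and stayed at 0 in A537T at 10 weeks. Leaving out 10AF and 11AF was an alternative chosen after seeing the data, as were the other pairs. Under it the log2 fold change of Hoxb9 in A537T at 10 weeks was 2.62. With 1 library left out the median log2 fold change of the tested members ran from 0.45 to 0.98 in KO at 10 weeks (lowest without 11AF) and from -0.32 to 0.078 in A537T at 10 weeks (lowest without 12AF, highest without 10AF). At 30 weeks it ran from 0.58 to 1.85 in KO (lowest without 4AF, highest without 5AF) and from 0.55 to 1.69 in A537T (lowest without 9AF, highest without 8AF). That median in KO at 30 weeks was 0.25 with no filter on low values, 0.26 with a minimum mean of 50, -0.22 with the seminal vesicle score as a covariate and -0.35 without 4AF and 6AF. In A537T at 30 weeks it was 0.034 with that covariate, -0.016 without 7AF and 9AF, 0.044 with no filter on low values and 0.016 with a minimum mean of 50, the last 2 over other sets of members. Signs turned for Hoxb13 in A537T at 10 weeks, which ran from -0.26 to 0.39 with 1 library left out (-0.035 without 16AF) and was -0.13 without 10AF and 11AF. In KO at 30 weeks Hoxb13 was 0.048 with the seminal vesicle score and 0.15 without 4AF and 6AF, Hoxb7 was -0.038 and -0.30 under these settings, and Hoxd8 was -0.11 without 4AF and 6AF. In A537T at 30 weeks Hoxb13 was 0.016 without 7AF and 9AF. The cause was not tested. The minimum mean of 10 left the Hoxc genes out of the fits at 30 weeks.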
